A study of Mus musculus with 6 samples.

Results

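Homer3, Plcb3, Plcb4, Prkcd, Gnaq and Aldoc were followed through the nuclei of the cerebellum, and the 6 were taken as a list of names from the 32286 genes of the count tables. Whole cerebella had been collected at 12 weeks of age from 3 SCA1 mice, which are Pcp2-ATXN1[82Q] mice, and from 3 wild-type (WT) C57Bl6 littermates. The transgene of the SCA1 mice is human ATXN1 whose CAG repeat is expanded, placed behind the promoter of Pcp2, a gene of Purkinje cells (PCs), so that the mutant protein is meant to be made in these neurons, while WT mice carry no transgene and no treatment was given. Each mouse gave 1 library of single nuclei, in which captured transcripts bear a unique molecular identifier (UMI), and UMIs are counted. The authors labelled every nucleus with SingleR, a program that matches it to a reference atlas. Of 45473 nuclei, 292 carried the Purkinje label (Neuron.Gad1Gad2.Pcp2), of which SCA1 mice 1, 2 and 3 gave 65, 52 and 29, and WT mice 1, 2 and 3 gave 76, 41 and 29.

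PCs receive glutamate from parallel fibers through metabotropic receptors, among others. These act through the G protein subunit Gαq, the product of Gnaq, on phospholipase C β, which splits a membrane lipid into inositol trisphosphate and diacylglycerol. The first opens the calcium channel encoded by Itpr1, and the second activates protein kinase C. Homer3 is a scaffold that ties such receptors to this channel at dendritic spines. Plcb3 and Plcb4 encode forms of phospholipase C β found in PCs, among others, and Prkcd encodes protein kinase C δ. PCs are also arranged in parasagittal stripes. Aldoc encodes aldolase C, the antigen called zebrin II, and zebrin-positive stripes are known for Plcb3 while zebrin-negative stripes are known for Plcb4.

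The 6 genes lie at different places in the mouse genome (GRCm38, GENCODE). Homer3 is at chr8:70282827-70294361 on the plus strand, and its last 1496 bases overlap Ddx49 on the opposite strand. Plcb3 is at chr19:6952325-6976470 on the minus strand and shares 1503 bases with Ppp1r14b on the plus strand. Plcb4, at chr2:135659011-136014593 on the plus strand, is a long gene that contains the long noncoding gene Gm14211 on the opposite strand. Prkcd is at chr14:30595354-30626210 on the minus strand, and Gnaq is at chr19:16132831-16387463 on the plus strand. Aldoc is short, at chr11:78322968-78327781 on the plus strand, with Spag5 ending 510 bases before it and Pigs starting 633 bases after it on the same strand. Reads on introns and exons were both counted by the authors.

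Since Homer3, Plcb3 and Prkcd were the members that did not overlap between SCA1 and WT PCs on CPM scaled by TMM, a normalization factor, the stretch before their RefSeq start sites (GRCm38.p6) is shown, cut where a GENCODE exon begins. Homer3 is at chr8:70282749-70282826 on the plus strand, Plcb3 at chr19:6969815-6970064 on the minus strand and Prkcd at chr14:30626211-30626458 on the minus strand, each written 5′ to 3′. The RefSeq start of Plcb3 lies inside the longer GENCODE gene. Capitals mark AGGTCA on either strand, the core site read by ROR nuclear receptors, and none of the 3 stretches held TGAATGAA or TGAATGGA on either strand, octamers read by Capicua, a partner of ATXN1.
Homer3: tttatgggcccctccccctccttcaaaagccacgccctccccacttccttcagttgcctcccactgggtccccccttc
Plcb3: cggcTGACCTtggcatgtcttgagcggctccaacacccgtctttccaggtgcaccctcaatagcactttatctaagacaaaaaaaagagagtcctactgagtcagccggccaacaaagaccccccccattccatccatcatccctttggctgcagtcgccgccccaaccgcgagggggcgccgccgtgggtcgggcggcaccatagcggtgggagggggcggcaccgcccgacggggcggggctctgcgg
Prkcd: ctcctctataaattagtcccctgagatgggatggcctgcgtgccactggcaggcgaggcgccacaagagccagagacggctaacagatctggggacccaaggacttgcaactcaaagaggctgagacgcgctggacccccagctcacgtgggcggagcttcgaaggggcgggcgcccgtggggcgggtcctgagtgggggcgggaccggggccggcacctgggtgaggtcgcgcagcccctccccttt
Among all 32851 RefSeq windows of 300 bases around a start site, 16.3% held AGGTCA on either strand and 2.47% held either octamer. In these full windows, Homer3 and Plcb3 had 1 match of AGGTCA each, and no window of the 6 genes had an octamer match. These matches are letters in a window and were not tested as binding sites.

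The libraries held 18916647 to 98366627 UMIs, and the PC nuclei were deep, with a median of 36466.5 UMIs against 5923 in granule neurons. The Purkinje label fitted its markers, since Pcp2, Calb1, Ppp1r17, Itpr1, Car8 and Rgs8 were each at their highest mean level in this label among the 13 labels with at least 10 nuclei in every mouse. Human ATXN1 had 12, 15 and 19 UMIs in the PC nuclei of SCA1 mice 1, 2 and 3 and 0 in those of the WT mice. In the PC sums, the 4 granule markers together ran from 26.3 to 160 UMIs per 1000000 UMIs (CPM) in SCA1 and from 33.8 to 266 in WT mice. The choroid plexus markers came to 162 CPM in SCA1 mouse 1 and to between 0 and 20.6 in the other mice. Of all barcodes, 254 occurred in more than 1 library, 3 PC nuclei bore such a barcode, and none was a PC nucleus in more than 1 library. Library numbers placed mouse 1 of either genotype in batch 1 and the other mice in batch 2.

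The first question was whether these genes differ between SCA1 and WT PCs. Homer3 and Prkcd were lower in every SCA1 mouse than in every WT mouse, Plcb3 was nearly so, and Plcb4, Gnaq and Aldoc overlapped between genotypes. None of the 6 passed the test over all genes (edgeR quasi-likelihood test on mouse sums with batch and genotype, Benjamini-Hochberg adjusted p of at most 0.05), and 0 of the 9821 genes tested did (0%), while an unadjusted p under 0.05 was found for 653 (6.65%). Calls depended on the fit. DESeq2 called 66 of 5251 genes (1.26%) with Homer3 and Plcb3 among them. Limma on single nuclei called 409 of 21377 (1.91%) with Homer3, Plcb3 and Aldoc, although there the nuclei of 6 mice stand in for replicates. With no filter on low counts, edgeR called 223 of 21377 (1.04%) with Plcb3, Prkcd and Aldoc. With a term for replicate number in place of batch, edgeR called 172 of 9821 (1.75%) with Homer3, Plcb3 and Prkcd. The members' fitted log2 fold changes were all below 0, with a median of -0.86, beside 0.02 over all genes tested. The members had been chosen with earlier results of these data known, so this is a description. All levels that follow are CPM of the PC sum of a mouse, and fold changes come from the fit, which uses TMM factors. With library size alone, the median of all genes moved to 0.20, so that SCA1 levels relative to the bulk of genes stood lower than the CPM show.

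Homer3, the scaffold, stood at 437, 339 and 342 CPM in SCA1 mice 1, 2 and 3 and at 691, 615 and 461 CPM in WT mice 1, 2 and 3. The highest SCA1 mouse was just below the lowest WT mouse, so the genotypes did not overlap, as held for 252 of all genes tested in this direction (2.57%), or 501 (5.10%) on TMM-scaled CPM. The log2 fold change was -0.84 (SE 0.20, adjusted p = 0.23, edgeR). Within batch 1 the log2 ratio of CPM was -0.66, and within batch 2 it was also -0.66.

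Prkcd, the kinase, was a low gene in PCs, at 8.30, 13.9 and 10.9 CPM in the SCA1 mice and 22.5, 30.1 and 30.5 CPM in the WT mice. These levels rest on 21, 15 and 19 UMIs in the SCA1 sums and on 73, 25 and 34 UMIs in the WT sums. The UMIs lay in 11, 6 and 3 of 65, 52 and 29 SCA1 nuclei and in 22, 6 and 6 of 76, 41 and 29 WT nuclei. A few nuclei thus set the level in most mice. Again every SCA1 mouse lay below every WT mouse. The log2 fold change was -1.54 (SE 0.28, adjusted p = 0.11, edgeR), and within the batches the log2 ratios of CPM were -1.44 and -1.29. With no filter on low counts its adjusted p was 0.0027.

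Plcb3, the phospholipase of zebrin-positive stripes, was at 33.2, 48.1 and 26.3 CPM in the SCA1 mice and at 87.6, 101 and 47.6 CPM in the WT mice. SCA1 mouse 2 and WT mouse 3 met at nearly the same CPM, and on TMM-scaled CPM the genotypes did not overlap. The fit gave -1.33 on the log2 scale (SE 0.31, adjusted p = 0.22, edgeR), and the batches gave log2 ratios of -1.40 and -0.999.

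Plcb4, the phospholipase of zebrin-negative stripes, was at 828, 784 and 819 CPM in SCA1 and at 794, 798 and 1085 CPM in WT mice. WT mouse 3 was the highest, and the other 5 mice lay between 784 and 828 CPM. The log2 fold change was -0.32 (SE 0.23, adjusted p = 0.96, edgeR), and -0.12 without WT mouse 3. Gnaq, which couples receptors to both enzymes, was at 407, 464 and 579 CPM in SCA1 and at 413, 489 and 620 CPM in WT mice, with a log2 fold change of -0.25, which was -0.37 without SCA1 mouse 3, -0.12 without SCA1 mouse 2 and -0.10 without WT mouse 3. The genotypes overlapped.

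Aldoc was at 127, 138 and 31.5 CPM in SCA1 and at 264, 95.2 and 132 CPM in WT PCs, and the genotypes overlapped (log2 fold change -0.89, SE 0.41, adjusted p = 0.76, edgeR). The fold change was -1.60 without SCA1 mouse 2 and -0.53 without SCA1 mouse 3, and it was not called in either case. Single nuclei carried much of it in some mice of both genotypes. The nucleus with the most Aldoc held 7.14%, 22.1% and 30.9% of the Aldoc UMIs of SCA1 mice 1, 2 and 3 and 15.8%, 12.7% and 57.1% of those of WT mice 1, 2 and 3. Without it the levels were 120, 111 and 23.5 CPM in SCA1 and 225, 88.1 and 61.6 CPM in WT mice, so WT mouse 3 moved most. These nuclei held 10, 8 and 61 Plcb4 UMIs in SCA1 and 1, 2 and 2 in WT mice.

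**Figure D1:**
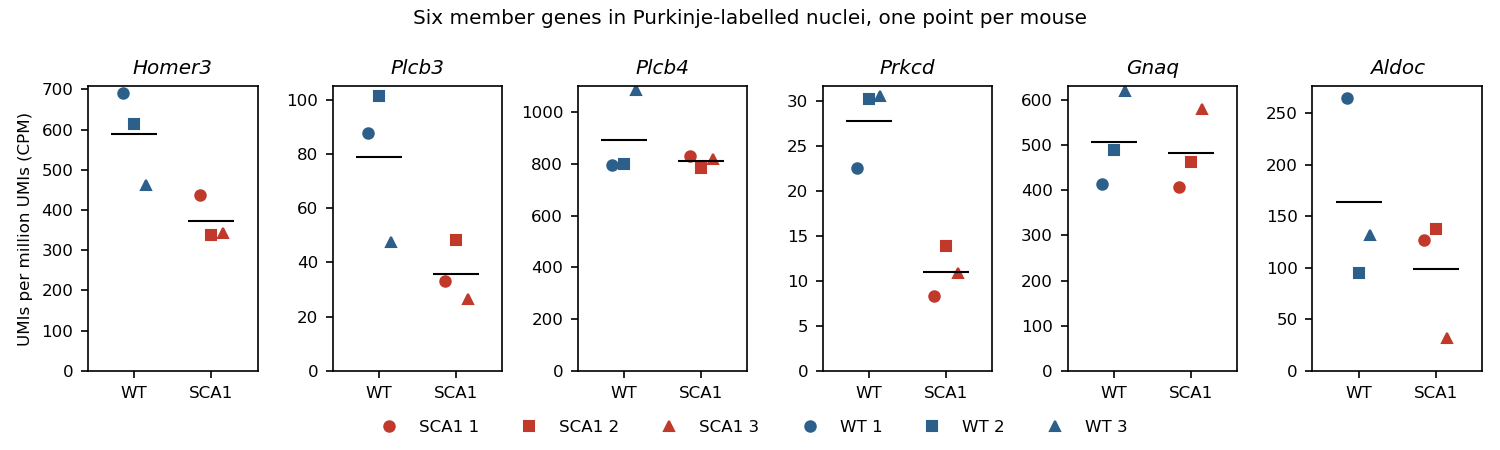
Levels of the 6 genes in Purkinje-labelled nuclei, as CPM of the sum of each mouse on the vertical axis of each panel, with WT mice in blue, SCA1 mice in red and a line at the mean of n = 3. The SCA1 points of Homer3 and Prkcd all lie below the WT points, those of Plcb3 meet at 48.1 and 47.6 CPM, and those of Plcb4, Gnaq and Aldoc overlap.

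Of a list of 32 genes of this cascade, 27 could be tested in PCs and none was called. The list was chosen with earlier results of these data known, so its counts beside all genes are a description. The median log2 fold change of the 27 was -0.52, with 22 below 0 and 5 above. On CPM, 8 were lower in every SCA1 mouse than in every WT mouse, beside 2.57% of all genes tested, and 1 was higher. On TMM-scaled CPM, 11 were lower, beside 5.10% of all genes. Beside Homer3 and Prkcd these included Rgs8, a regulator of G protein signalling that is abundant in PCs (mean 358 ± 57.9 CPM in SCA1 and 668 ± 27.4 in WT, SD, n = 3), Dgkz, a kinase that removes diacylglycerol (955 ± 83.6 and 1571 ± 211), and Dagla, which makes an endocannabinoid from it (234 ± 32.95 and 352 ± 26.7). Car8, which binds the Itpr1 channel (2079 ± 314 and 2910 ± 348), and the postsynaptic scaffold Shank2 (1333 ± 152 and 1828 ± 140) were lower as well. Rgs7 was the gene that was higher in every SCA1 mouse, at 786 ± 111 CPM against 460 ± 56.7. For comparison, 1178 of all genes tested (12.0%) were higher in every SCA1 mouse on CPM and 507 (5.16%) on TMM-scaled CPM. Their fitted log2 fold changes were -1.07 for Rgs8, -0.89 for Dgkz, -0.77 for Dagla, -0.66 for Car8, -0.63 for Shank2 and 0.58 for Rgs7.

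Itpr1, the calcium channel of the cascade, and Slc1a6 overlapped between genotypes on CPM. Itpr1 was at 8086, 7733 and 10608 CPM in SCA1 and at 10354, 11036 and 14080 CPM in WT mice, with SCA1 mouse 3 above the lowest WT mouse. Slc1a6, a glutamate transporter of PCs that is enriched in zebrin-positive stripes, was at 814, 651 and 515 CPM against 855, 791 and 509 CPM. Among the zebrin-positive genes only Gabbr2, a GABA-B receptor subunit, was lower in every SCA1 mouse on CPM, at 676 ± 149 against 1071 ± 233 CPM (SD, n = 3), as were 2.57% of all genes tested. On TMM-scaled CPM it overlapped, with 876 in SCA1 mouse 3 and 873 in WT mouse 1. The paralog Aldoa was at 140, 112 and 24.0 CPM in SCA1 and at 135, 35.0 and 21.5 CPM in WT mice.

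The share of PC nuclei with at least 1 UMI was compared after each nucleus had been thinned to 10000 UMIs, which left 64, 27 and 28 SCA1 nuclei and 68, 29 and 17 WT nuclei. Intervals are exact 95% binomial intervals and cover counting error only. Plcb3 had a UMI in 21.9% (12.5 to 33.97), 22.2% (8.62 to 42.3) and 25.0% (10.7 to 44.9) of nuclei of SCA1 mice 1, 2 and 3. In WT mice 1, 2 and 3 the shares were 48.5% (36.2 to 61.0), 69.0% (49.2 to 84.7) and 29.4% (10.3 to 56.0). The mean difference was -25.9 percentage points (exact two-sided permutation p = 0.1, the smallest that 3 mice against 3 allow), and it was -26.7 in batch 1 and -25.6 in batch 2. Without 1 mouse it ran from -35.7, without WT mouse 3, to -15.9, without WT mouse 2. Thinned to 3000 UMIs, it was -10.6, with -2.17 in batch 1 and -14.8 in batch 2. Prkcd had a UMI in 4.69%, 3.70% and 7.14% of SCA1 and 10.3%, 13.8% and 17.6% of WT nuclei, a mean difference of -8.73 percentage points (exact p = 0.1). These were 3, 1 and 2 SCA1 nuclei and 7, 4 and 3 WT nuclei. The intervals overlapped, at 0.98 to 13.1, 0.09 to 19.0 and 0.88 to 23.5 in SCA1 mice. In WT mice they were 4.24 to 20.1, 3.89 to 31.7 and 3.80 to 43.4. The p of Plcb3 and Prkcd were not adjusted. The Prkcd differences were -5.61 in batch 1 and -10.3 in batch 2. Thinned to 3000 UMIs, its shares overlapped, at 0%, 7.84% and 3.57% in SCA1 and 11.8%, 5.71% and 16.0% in WT mice. For Homer3 and Gnaq the mean differences were -1.95 and -0.25 percentage points at 10000 UMIs. At 3000 UMIs they were -17.9 and 1.27. Without thinning, Plcb3 had a UMI in 32.7 to 48.3% of SCA1 and 51.7 to 73.7% of WT PC nuclei, against 0.936 to 6.11% of granule nuclei, and Prkcd in 10.3 to 16.9% and 14.6 to 28.9%, against 1.16 to 10.6% of granule nuclei, at the median depths given above, and without thinning the Prkcd shares overlapped between genotypes.

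Aldoc and Plcb4 divide PCs into stripes, and both could be read in the same nucleus. At 10000 UMIs, Aldoc had a UMI in 68.8%, 51.9% and 28.6% of SCA1 and 73.5%, 44.8% and 35.3% of WT PC nuclei. Plcb4 had one in 100%, 92.6% and 92.9% and in 95.6%, 96.6% and 88.2%. Both were seen in 68.8%, 48.1% and 21.4% of SCA1 and 70.6%, 41.4% and 29.4% of WT nuclei. Neither was seen in 0%, 3.70% and 0% and in 1.47%, 0% and 5.88%, where 0 of 64 allows up to 5.60% as the upper end of the exact interval. The differences SCA1 minus WT were -1.49 percentage points for Aldoc, 1.69 for Plcb4, -1.02 for both and -1.22 for neither, with exact two-sided permutation p of 1, 0.6, 0.9 and 0.7 and an adjusted p of 1 over the 4 states. Within batches 1 and 2 the differences were -4.78 and 0.15 for Aldoc, 4.41 and 0.33 for Plcb4, -1.84 and -0.61 for both and -1.47 and -1.09 for neither. With all UMIs, Aldoc had a UMI in 98.5%, 75.0% and 65.5% of SCA1 and 100%, 68.3% and 65.5% of WT PC nuclei. Granule nuclei of the same libraries, at the lower median depth given above, had one in 94.4%, 66.7% and 34.3% and in 99.1%, 35.4% and 49.7%. The PC shares were the higher in all 6 mice, but the cell types were not compared at 1 depth.

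The level of Aldoc differed between libraries in every label, with WT mouse 1 highest throughout. Granule neurons, which are not known for aldolase C, held 3.15, 1.26 and 0.443 Aldoc UMIs per nucleus in the SCA1 libraries and 5.26, 0.455 and 0.762 in the WT libraries. The 10 labels other than PCs, Bergmann glia (BG) and velate astrocytes (VA) lay between 3.10 and 3.60, 1.00 and 1.70, and 0.368 and 0.656 in SCA1 mice 1, 2 and 3, and between 4.06 and 5.64, 0.190 and 0.833, and 0.364 and 1.67 in WT mice 1, 2 and 3. They were thus close together in the mice of batch 1 and farther apart in relative terms in WT mice 2 and 3. BG held 4.22, 3.02 and 1.19 and 6.45, 0.800 and 1.55 Aldoc UMIs per nucleus, above granule neurons in all 6 mice. PCs held 4.95, 2.87 and 1.90 in SCA1 and 11.3, 1.93 and 5.07 in WT mice, which was 1.57 to 6.65 times the granule value of the same library. In CPM, which divides by depth, the order was turned, with 402, 255 and 65.3 CPM in SCA1 granule neurons and 628, 184 and 104 CPM in WT, above PCs in 5 of 6 mice. The level of the library moved with both values, and its part in the genotype values of Aldoc was not tested.

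**Figure D2:**
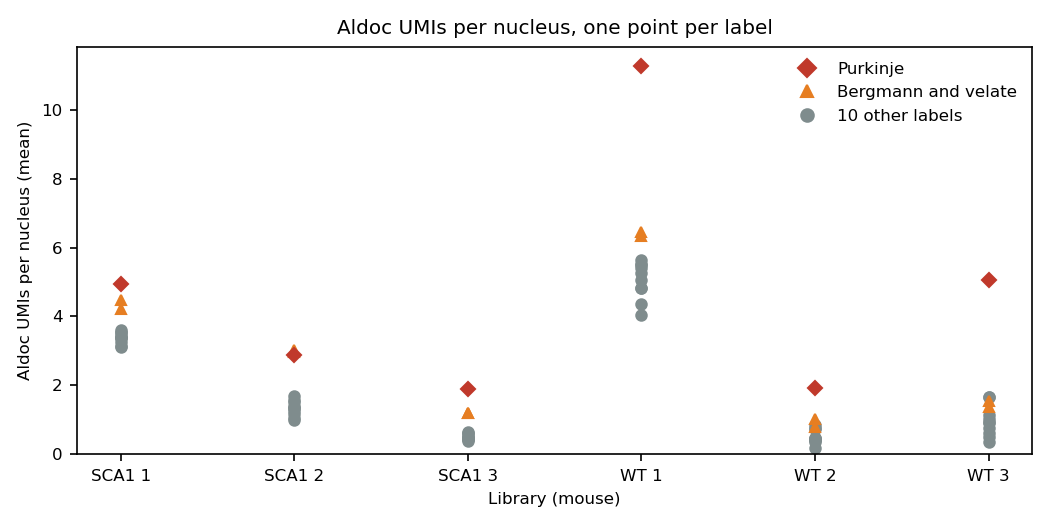
Mean Aldoc UMIs per nucleus on the vertical axis for each of 13 labels in each of the 6 libraries, with Purkinje-labelled nuclei as red diamonds, BG and VA as orange triangles and the other 10 labels as grey circles. The grey circles sit between 4.06 and 5.64 in WT mouse 1 and between 0.368 and 0.656 in SCA1 mouse 3, and they spread from 0.364 to 1.67 in WT mouse 3.

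The levels were next compared between cell types. Homer3 was highest in PCs in both genotypes, Plcb3 was highest in PCs in WT mice, and Gnaq was spread over all labels. Against each of the 12 other labels of the same mice, PCs were higher in Homer3 in 12 of 12 tests, in Plcb3 in 12, in Gnaq in 12 and in Plcb4 in 12 (edgeR with mouse as a term, adjusted p of at most 0.05). With library size alone, Plcb4 was not called against granule neurons (0.03, adjusted p = 0.82, edgeR) nor Gnaq against BG (0.18, adjusted p = 0.096, edgeR). Over all 72 pairs of gene and label, 60 were called higher and 5 lower in PCs. Of all 159432 tests of a gene in these 12 comparisons, 25.7% were called higher and 25.2% lower in PCs.

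Homer3 had a mean of 589 ± 117 CPM in WT PCs (SD, n = 3), followed by 146 ± 38.9 CPM in the interneuron label Pvalb-Nefh and 94.4 ± 39.1 in Pvalb-Rab3b. The PC range did not overlap the next label, and each lower step in the order did overlap its neighbour. The log2 fold change of PCs ran from 2.45 against Pvalb-Nefh to 6.23 against the glutamatergic label Slc17a6-Nrgn. In granule neurons its level was 35.7 ± 31.4 CPM in WT mice, with a UMI in 43.0% of nuclei of WT mouse 1 and in 5.20% and 8.98% of those of WT mice 2 and 3. The PC marker Pcp2 was counted there as well, at 229 CPM against 612 CPM in PCs (means over 6 mice).

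Plcb3 had 78.8 ± 27.9 CPM in WT PCs, and the next label, Dcn-Nnat, had 20.6 ± 10.8. VA and BG followed at 14.2 ± 2.52 and 11.9 ± 4.20 CPM, BG did not overlap Lgi2, the next label, and the remaining labels were below 6 CPM and overlapped their neighbours. In SCA1 mice 1, 2 and 3, Dcn-Nnat was at 30.7, 55.1 and 41.1 CPM against 33.2, 48.1 and 26.3 CPM in PCs, so it was the higher label in 2 of these 3 mice. The smallest log2 fold change of PCs, over both genotypes with TMM factors, was 1.53, against Dcn-Nnat. Gnaq differed least between labels. Its means in WT mice ran from 508 ± 105 CPM in PCs to 238 ± 40.9 in the label Slc17a6-Sln, every label overlapped the next in the order, and the log2 fold changes of PCs ran from 0.62 against BG to 1.77 against Slc17a6-Sln.

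Plcb4 was shared with other neurons. Its mean was 961 ± 92.9 CPM in Slc17a6-Sln, a label led by a marker of glutamatergic neurons, 892 ± 167 in PCs, 844 ± 117 in granule neurons and 725 ± 177 in BG of WT mice, and these neighbours overlapped. It was lowest in oligodendrocytes (OL), at 168 ± 46.5 CPM. The fit called PCs higher than Slc17a6-Sln by 0.55 and than granule neurons by 0.52 on the log2 scale with TMM factors, but with library size alone the difference from Slc17a6-Sln turned to -0.19. The order of the highest labels thus rests on the scaling.

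Prkcd had its highest levels outside PCs. Pvalb-Nefh, at 165 ± 41.9 CPM in WT mice, lay above all other labels, and Pvalb-Rab3b and Pvalb-Cadm1 followed at 96.9 ± 19.8 and 93.8 ± 22.4 CPM. PCs, at 27.7 ± 4.51 CPM, overlapped both their neighbours VA and Lgi2 in the order. PCs were called lower than the 3 Pvalb labels named, by -2.65, -1.92 and -1.77 on the log2 scale, and higher than 7 labels. They were not called against VA (-0.27) and Dcn-Nnat (-0.74), although with library size alone both were called lower (-0.84 and -1.51), and Dcn-Nnat also without WT mouse 2 (-0.90) or WT mouse 3 (-1.10) and in nuclei of at least 10000 UMIs (-0.95). Aldoc was called lower in PCs than in BG (-0.87) and VA (-0.96), higher than in 5 labels and in neither direction against 5. Counted per nucleus, without dividing by depth, PCs held more Aldoc UMIs than BG and VA in every mouse but SCA1 mouse 2. Of the 5 higher calls, Pvalb-Cadm1 was lost in 5 of 12 alternatives and reversed in 1, Slc17a6-Sln lost in 4 and Pvalb-Chrm2 in 3. Among the uncalled labels, Pvalb-Nefh was newly called in 4 of 12, and granule neurons gave -0.37 (adjusted p = 0.08, edgeR). The granule difference was called with library size alone (-0.87), with no filter (-0.53), with label and cluster the same (-0.50) and without WT mouse 3 (-0.69), and it was -0.23 without SCA1 mouse 1. In nuclei of at least 10000 UMIs it turned to 0.40 (adjusted p = 0.11, edgeR).

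**Figure D3:**
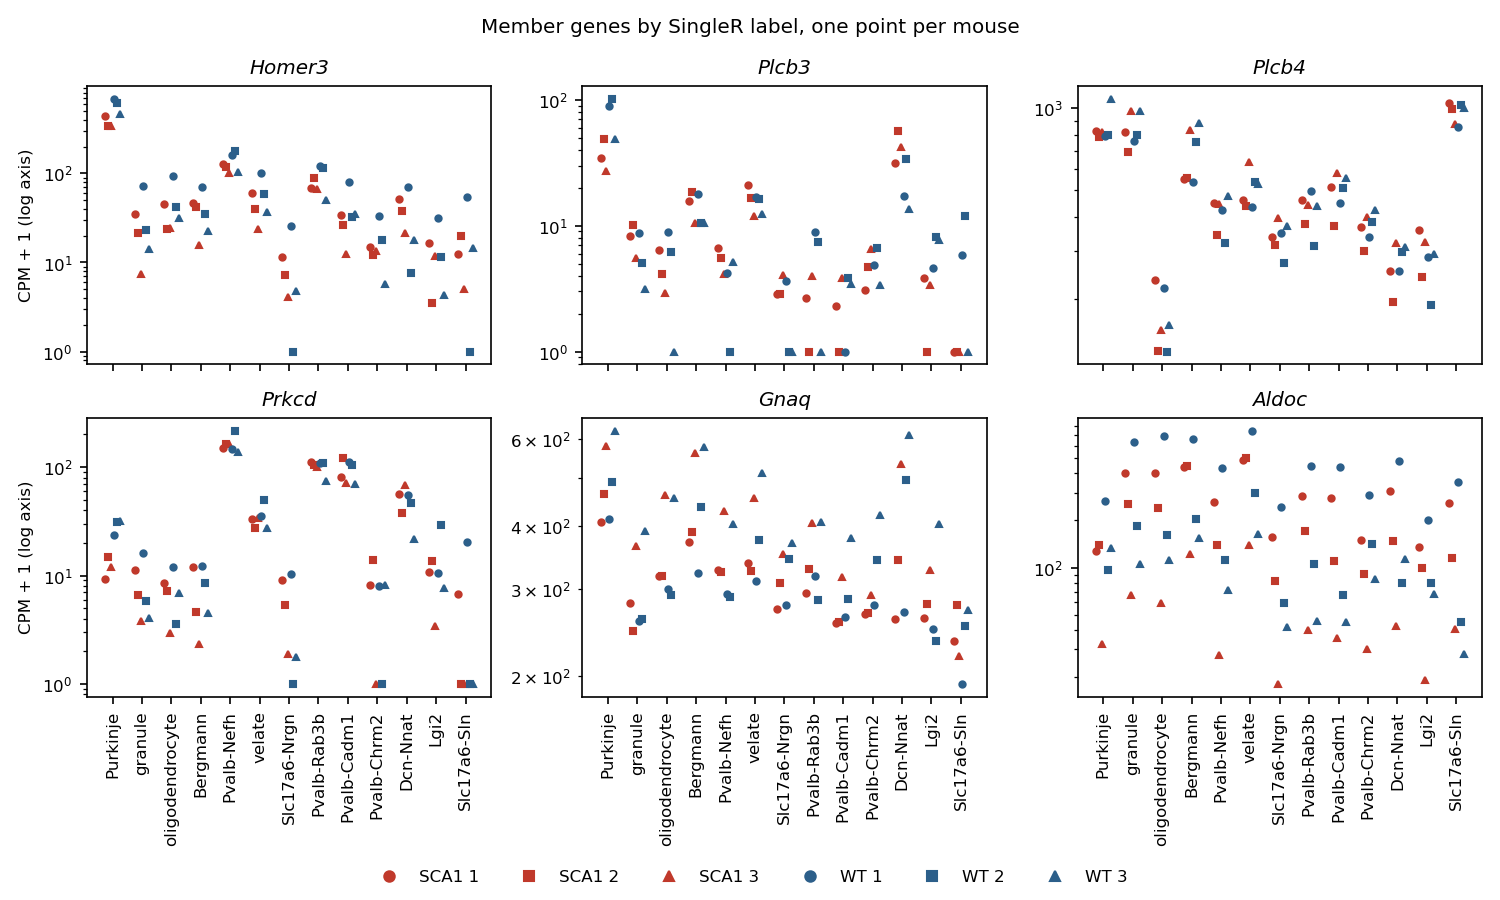
CPM + 1 on a log axis for each gene and each of 13 SingleR labels, with 1 point per mouse (WT blue, SCA1 red). Homer3 is highest in Purkinje-labelled nuclei, as is Plcb3 in WT mice but not in SCA1 mice 2 and 3, and Prkcd in Pvalb-Nefh, while Gnaq spans 192 to 620 CPM over all points and the Aldoc point of WT mouse 1 is the highest in every label.

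The genes whose levels across the 13 labels were most like each member are given as a description over WT means (Pearson r of log2(CPM + 1) among 13959 genes with a mean of at least 10 CPM in some label). For Homer3 they were Iltifb (r = 0.93), Nsg1 (0.90) and Gm42439 (0.88). For Plcb3 they were Fam117a (0.87), Foxp4 (0.87) and Myo10 (0.86), and for Prkcd they were Gm15417 (0.87), Proser2 (0.83) and Eif4ebp1 (0.83). Plcb4 was closest to Gm14211 (0.97), the antisense gene inside it, followed by Asph (0.89) and Tbc1d1 (0.83). Whether counts of Plcb4 and Gm14211 share reads was not tested. For Gnaq they were Ptpn13 (0.91), Arap1 (0.90) and Gm17251 (0.90). For Aldoc they were Daam2 (0.91), Ech1 (0.91) and Pnrc2 (0.90). The labels share 6 libraries, so these r have no independent samples behind them.

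Outside PCs, 56 pairs of member and label passed the filter on low counts for SCA1 against WT and none was called (edgeR), beside 2 of 118234 tests of any gene in these labels (0.00169%). An unadjusted p under 0.05 was found for 5 of the 56 pairs and for 1.47% of all tests. Homer3 was below 0 in 8 of 9 labels tested, from -1.08 in Pvalb-Cadm1 to 0.24, and Plcb3 was above 0 in all 4 labels in which it was tested, from 0.10 to 1.07. Plcb4 was below 0 in 6 of 12 labels and Gnaq in 8 of 12. In granule neurons Plcb3 was at 5.83 ± 2.65 CPM over 6 mice.

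The difference between cell types was tested itself, as SCA1 against WT in PCs beyond that in granule neurons of the same mice. None of the members was called and 0 of 16043 genes were (0%), with 745 (4.64%) at an unadjusted p under 0.05 (edgeR). Plcb3 had the largest difference of the 6, at -1.94 on the log2 scale (SE 0.34, adjusted p = 0.35). Prkcd gave -1.32 (SE 0.80, adjusted p = 1), with -2.24 without WT mouse 1 and -0.56 without SCA1 mouse 1, and Homer3 gave -0.11 (SE 0.61, adjusted p = 1), which ran from -0.73 to 0.36 without 1 mouse and so has no settled direction. In granule neurons alone, Homer3 was at -0.71 (SE 0.36) and Plcb3 at 0.66 (SE 0.36) on the same scale, against -0.84 and -1.33 in PCs. DESeq2 and the fit with no filter on low counts each called 1 member, Plcb3.

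Within PCs, the nuclei of each mouse were next split at the median of their Aldoc UMIs per 10000 UMIs, and the Aldoc-high and Aldoc-low nuclei were summed and compared with mouse as a term. Aldoc chose the groups and is not tested. Plcb3 rose in the Aldoc-high nuclei, a call that some alternatives lost, and Plcb4 was lower in all 6 mice, although not called, and Homer3 and Gnaq did not pass either. Of 7456 genes, 38 (0.510%) were called higher and 27 (0.362%) lower, 58 of them in the same direction in all 6 mice.

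Plcb3 was at 50.8, 65.1 and 45.8 CPM in the Aldoc-high nuclei of SCA1 mice 1, 2 and 3, against 17.3, 36.2 and 8.71 CPM in their Aldoc-low nuclei. In WT mice 1, 2 and 3 it was at 116, 127 and 70.6 CPM against 70.2, 78.7 and 32.6 CPM. It was higher in 6 of 6 mice, and the fit gave 1.08 on the log2 scale (SE 0.20, adjusted p = 0.028, edgeR). The call was lost without SCA1 mouse 1 (adjusted p = 0.075) or SCA1 mouse 2 (0.089) and with label and cluster the same (0.075, all edgeR). Over the fits without 1 mouse, the log2 fold change ran from 0.91 to 1.24. The call was also lost with any Aldoc UMI against none, where the log2 fold change was 0.55 (adjusted p = 0.997, edgeR). With nuclei of at least 10000 UMIs alone, Plcb3 was higher in 6 of 6 mice but not called (adjusted p = 0.065, edgeR). There 11 genes (0.154%) were called higher and 9 (0.126%) lower. With these nuclei thinned to 10000 UMIs and split again, Plcb3 was higher in 3 and lower in 2 of 6 mice. Its mean log2 ratio was then 0.37 ± 0.61 (SD, n = 6).

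Plcb4 was at 741, 566 and 707 CPM in the Aldoc-high nuclei of the SCA1 mice, against 907, 937 and 919 CPM in the Aldoc-low nuclei. The WT values were 575, 527 and 428 CPM against 928, 1032 and 1512 CPM. All 6 mice were lower in the Aldoc-high nuclei, and the log2 fold change was -0.80 (SE 0.18, adjusted p = 0.053, edgeR). It was called with library size alone (adjusted p = 0.036), with no filter (7.3e-09), after thinning to 10000 UMIs (0.029) and without SCA1 mouse 3 (just under the threshold, all edgeR), and with DESeq2 (0.0067). The mean log2 ratio over mice was -0.81 ± 0.55 (SD, n = 6, exact two-sided sign permutation p = 0.03125, the smallest that 6 mice allow). The SCA1 mean was -0.47 ± 0.23 and the WT mean -1.16 ± 0.59, which differ by 0.69 (exact permutation p = 0.2, with 0.1 the smallest possible).

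**Figure D4:**
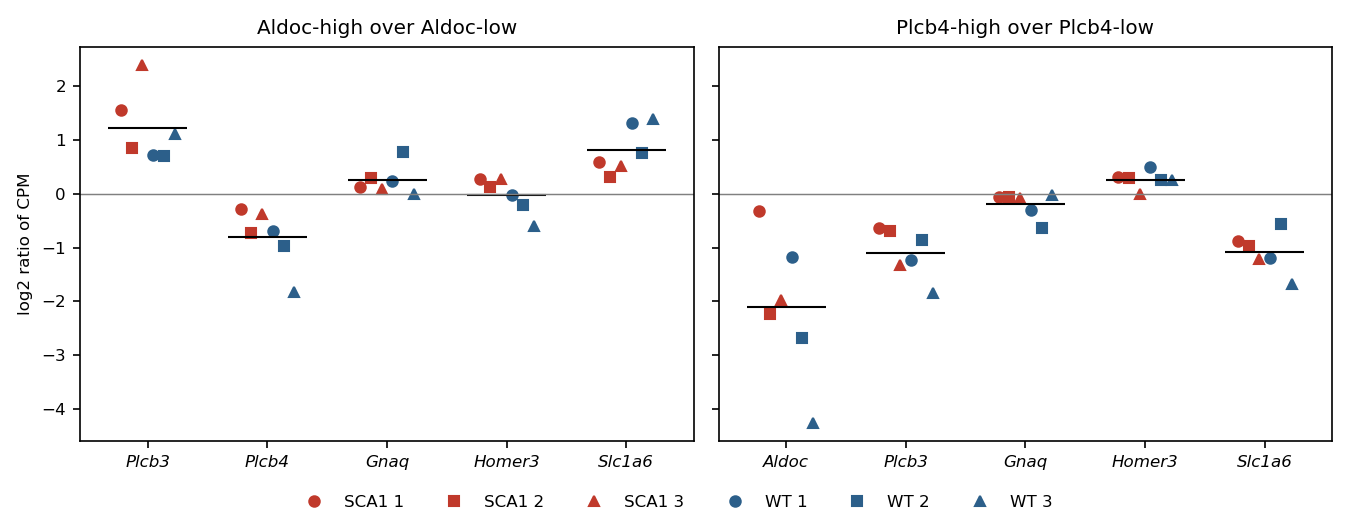
Log2 ratio of CPM on the vertical axis for the members tested and Slc1a6, with a point per mouse (WT blue, SCA1 red) and a line at the mean of n = 6, for Aldoc-high over Aldoc-low nuclei in the left panel and Plcb4-high over Plcb4-low nuclei in the right panel. On the left the Plcb3 points lie above 0 and the Plcb4 points below 0, between -1.82 and -0.29, and on the right the Aldoc and Plcb3 points lie below 0.

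Prkcd had too few counts for the fit and is given as counts, with 148 UMIs in the Aldoc-high and 39 in the Aldoc-low nuclei of all mice, and with higher CPM in the Aldoc-high nuclei of 6 of 6 mice. Slc1a6 rose by 0.81 (SE 0.13, adjusted p = 0.013, edgeR), and Prkca, another protein kinase C, fell by 0.78 (SE 0.17, adjusted p = 0.043, edgeR). Of the cascade list, Plcb3 and Prkca were the members called among 26 tested. Among the largest called changes were Spag5 (2.88), Plcxd2 (2.04), Kctd12 (1.94) and Eda (1.89) upward and 4930438E09Rik (-1.67), Gm21798 (-1.53), Ebf2 (-1.47), Sdk1 (-1.28) and Egfem1 (-1.13) downward. Spag5 is the neighbour that ends just before Aldoc. The Aldoc-high nuclei had the lower median UMI count in 6 of 6 mice. The glial gene Slc1a3 (log2 fold change 1.06, adjusted p = 0.12) and the granule gene Gabra6 (0.81, adjusted p = 0.2) were higher there in 6 of 6 mice and the oligodendrocyte gene Mbp was called higher (0.84, adjusted p = 0.038, edgeR), and their part in these differences was not tested.

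A split at the median of Plcb4, in nuclei of at least 10000 UMIs, was added after the data were seen. Slc1a3 and Gabra6 were each higher in 2 and lower in 4 of the 6 mice in this split. In the Aldoc split of nuclei of at least 10000 UMIs, Slc1a3 was higher in 6 and Gabra6 in 5 of 6 mice. The part of foreign markers and of depth in the Plcb4 split was not tested. Plcb4 chose the groups and is not tested. Of 7002 genes, 78 (1.11%) were called higher and 118 (1.69%) lower in the Plcb4-high nuclei.

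Aldoc was at 112, 41.1 and 13.1 CPM in the Plcb4-high and at 140, 193 and 51.7 CPM in the Plcb4-low nuclei of SCA1 mice 1, 2 and 3. The WT values were 161, 22.8 and 12.9 CPM against 364, 146 and 248 CPM. It was lower in the Plcb4-high nuclei of 6 of 6 mice, and the fitted log2 fold change was -1.62 (SE 0.28, edgeR adjusted p = 0.0027). The Aldoc split had used these nuclei and this pair of genes, so the result is not a second, independent test. Plcb3 fell by 1.06 in log2 units (SE 0.16, edgeR adjusted p = 0.00088), in 6 of 6 mice. Prkcd had 13 UMIs in the Plcb4-high and 163 in the Plcb4-low nuclei and was lower in 6 of 6 mice. Homer3 gave 0.28 (adjusted p = 0.12) and Gnaq -0.17 (adjusted p = 0.56), and neither was called (edgeR).

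Other listed genes went with Plcb4 or against it. Plcb1, a further phospholipase C β, rose by 1.36 in the Plcb4-high nuclei, Prkca by 1.06 and Rgs8 by 0.76, while Slc1a6 fell by 1.06, Rgs7 by 0.58 and Gabbr2 by 0.33 in log2 units (all called, edgeR). Of the zebrin-positive list, 4 of 5 genes tested fell and none rose. Of the zebrin-negative list, the 2 genes tested beside Plcb4 were not called (median log2 fold change 0.16). In the Aldoc split, none of its 3 genes was called (median -0.44). The largest called changes were 9630028H03Rik (2.24), 4930438E09Rik (1.86), Ebf2 (1.82), Sdk1 (1.72) and Gm21798 (1.55) upward and Col4a6 (-4.88), Slit2 (-3.96), Col4a2 (-3.78), Sorcs2 (-3.64) and B3galt5 (-3.36) downward. A split at the median of Plcb3 called 21 genes higher (0.300%) and 19 lower (0.271%) of 7000 and no other member, with Plcb4 lower in the Plcb3-high nuclei of 6 of 6 mice and Aldoc higher in 3 of 6.

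**Figure D5:**
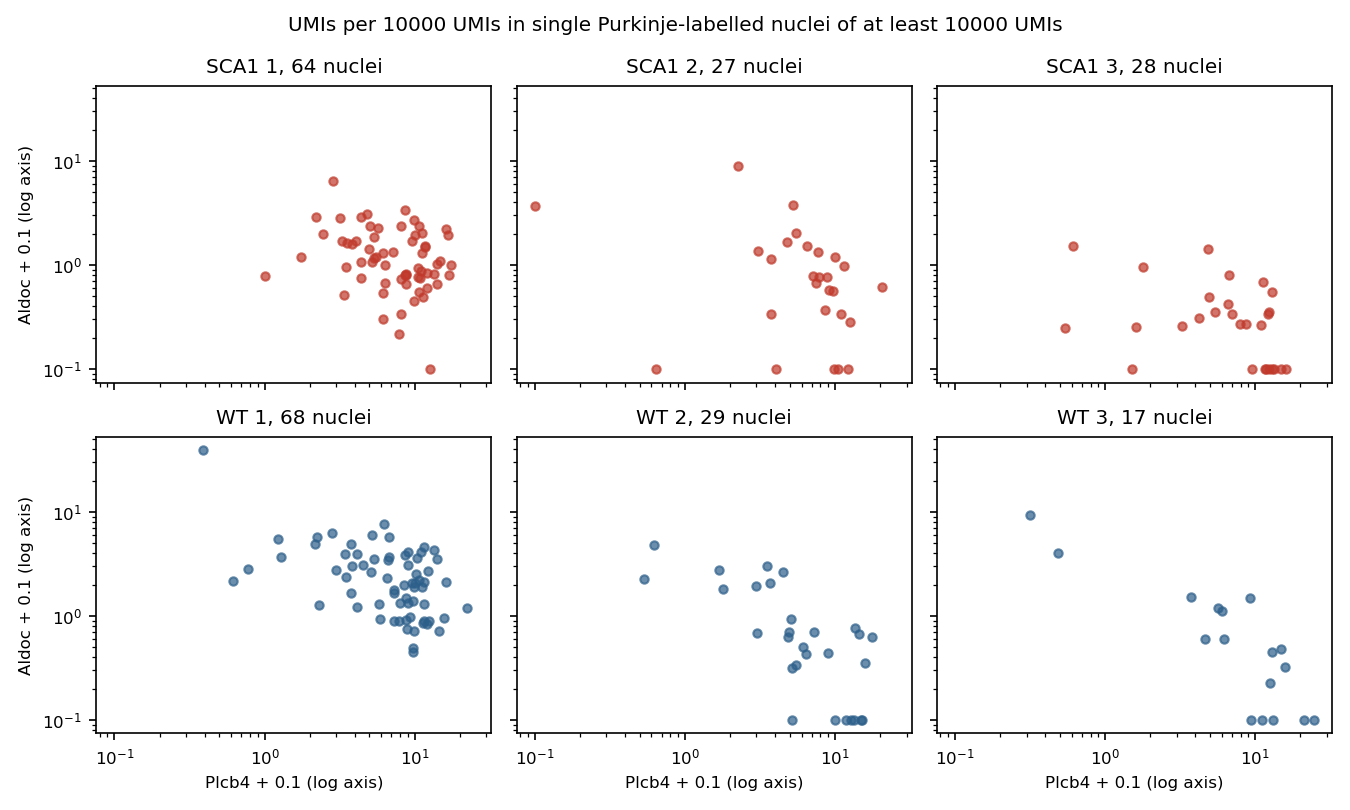
Aldoc on the vertical against Plcb4 on the horizontal axis in single Purkinje-labelled nuclei of at least 10000 UMIs, as UMIs per 10000 UMIs plus 0.1 on log axes, with a panel per mouse and a point per nucleus. Nuclei with much Plcb4 tended to have little Aldoc, and Spearman's rho was below 0 in 6 of 6 mice.

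Across the 233 PC nuclei of at least 10000 UMIs, the Spearman correlation of Plcb4 and Aldoc within a mouse had a lowest value of -0.82, a median of -0.44 and a highest value of -0.27 over the 6 mice. After thinning to 10000 UMIs these were -0.55, -0.46 and -0.17. Plcb4 and Prkcd gave -0.68, -0.45 and -0.21, or -0.45, -0.38 and -0.27 thinned. Prkcd and Aldoc gave 0.09, 0.35 and 0.57, or -0.0063, 0.32 and 0.44 thinned. Plcb3 and Aldoc gave 0.06, 0.28 and 0.57, which thinning lowered to 0, 0.10 and 0.26, with 5 of 6 mice above 0. Plcb3 and Plcb4 gave -0.58, -0.33 and 0.014, or -0.38, -0.17 and 0.10 thinned, with 5 of 6 mice below 0 on either scale. Plcb3 and Gnaq gave 0.07, 0.25 and 0.73, or 0.14, 0.24 and 0.43 thinned. Nuclei of a mouse share a library, and these correlations are descriptions.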

How the data were processed

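Nuclei of whole cerebella from 3 SCA1 and 3 WT mice were sequenced as 1 library per mouse. The authors aligned reads with Cell Ranger, intronic reads included, to a mouse genome with human ATXN1 added, removed debris with DIEM, normalised with Seurat 4.0.4 and labelled nuclei with SingleR. The values used here are the deposited raw UMI counts per gene and nucleus, and counts of 18916647 to 98366627 per library set their precision. Cell Ranger versions 4.0.0, 5.0.1 and 6.0.1 and R 4.1.0 stand in the submitters' processing notes. No doublet caller was run here.

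Counts were summed per mouse and SingleR label and tested with edgeR 4.0.16 (quasi-likelihood, TMM, filterByExpr, Benjamini-Hochberg over all genes, threshold 0.05) in R 4.3.3. Genotype fits held batch and genotype, and fits between labels or groups of nuclei held mouse. Batch was inferred from library numbers. Levels are UMIs per 1000000 UMIs of the sum. Single values were compared by exact permutation tests written in Python 3.11.15 with numpy 2.4.6. The exact intervals and Spearman correlations came from scipy 1.17.1. The scripts were tested on simulated data. Each mouse is a separate animal with 1 library. The members and lists were chosen with earlier results of these data known. Named genes were the 6 members, listed genes called or not overlapping between genotypes, Itpr1, Slc1a6 and further cascade genes, the 3 genes most alike to each member, and the 5 largest called changes each way that kept their direction in 6 mice. A few genes under this rule are not reported here. Alternatives were DESeq2 1.42.0, limma 3.58.1 with nuclei as replicates, other scalings, no filter, a replicate block, label with cluster, other thinning, and leaving out each mouse. The limit of 10000 UMIs and the splits by Plcb4 and Plcb3 were added after seeing the data. Intervals cover counting error only.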

Additional observations from a re-analysis of the deposited data

Results flagged for a closer look

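Gnaq stood apart in 1 mouse when Aldoc-high and Aldoc-low PC nuclei were compared. Its log2 ratio was 0.77 in WT mouse 2, far from the other 5 mice by Dixon's criterion, while the mean over 6 mice was 0.25 ± 0.27 (SD). Chance flags about 1 in 20 such groups.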

How the results depend on the processing

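The number of members called for SCA1 against WT in PCs went from 0 to 2 with DESeq2 and to 3 with no filter, with limma on nuclei and with a replicate block, and stayed at 0 without any mouse in turn. Over 102 refitted values of the 6 members in PCs, 91 kept direction and side of the threshold, 11 newly passed and 0 reversed. In their deviations from the group means, same-numbered SCA1 and WT mice correlated at 0.673, 0.067 and 0.503. Mice of unlike number correlated at values from -0.625 to 0.0792. The mice numbered 1 were also the only mice of batch 1, so for them number and batch cannot be told apart. Deviations within a genotype sum to 0, so these correlations are tied to each other. Whether replicate numbers pair the mice was not tested. With the block, Homer3, Plcb3 and Prkcd passed, and 172 of 9821 genes did (1.75%). For PC against granule genotype differences the count of 0 became 1 with DESeq2, with no filter and without WT mouse 1 (range 0 to 1). The difference for Homer3 reversed to 0.090 with library size, and without 1 mouse it ran from -0.73 to 0.36, reversing without SCA1 mouse 1 (0.36), SCA1 mouse 2 (0.12), WT mouse 2 (0.23) or WT mouse 3 (0.30).

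Between Aldoc-high and Aldoc-low nuclei, 1 member was called, 2 with DESeq2 or library size, 3 with no filter, and 0 with any Aldoc UMI against none, with label and cluster the same, or with nuclei of at least 10000 UMIs. Without 1 mouse the count ran from 0 to 2, with 0 without SCA1 mouse 1 or 2 and 2 without SCA1 mouse 3. Homer3, near 0, reversed to 0.0020 after thinning and to 0.00093, 0.023 and 0.10 without WT mouse 1, 2 and 3, within a range of -0.12 to 0.10 without 1 mouse. The Plcb4 log2 ratio was -0.81 with any Aldoc UMI against none (5 mice, p = 0.0625, exact sign permutation, the smallest 5 mice allow) and -0.92 to -0.61 without 1 mouse (the same p). Without 1 mouse, 2 to 3 members were called in the Plcb4 split and 0 in the Plcb3 split, which gave 1 with no filter.

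The share with neither Aldoc nor Plcb4 moved to 7.26 percentage points when nuclei were thinned to 3000 UMIs. Without 1 mouse, the differences ran from -11.0 to 9.66 for Aldoc, from -0.92 to 3.24 for Plcb4, from -12.3 to 11.3 for both and from -2.45 to 0.50 for neither. Of 858 values of PCs against other labels, 17 kept direction but were no longer called, 18 were newly called and 8 reversed. With library size these were Aldoc against Dcn-Nnat (-0.38), Pvalb-Cadm1 (-0.014), Pvalb-Nefh (-0.13) and Pvalb-Rab3b (-0.24) and Plcb4 against Slc17a6-Sln (-0.19). Aldoc against Pvalb-Rab3b ran from -0.015 without WT mouse 3 to 0.57 without SCA1 mouse 1, and with nuclei of at least 10000 UMIs Aldoc was 0.40 against granule neurons and 0.15 against OL. Without 1 mouse, 64 to 68 of 72 pairs were called. The cause of these shifts was not tested.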
